A study of Homo sapiens with 4 samples.

Results

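Cyclins are proteins whose levels swing through the cell cycle, and each works by binding a cyclin-dependent kinase (CDK) that is inactive without it. D-type cyclins act with CDK4 and CDK6 early in G1, E-type cyclins act with CDK2 at the entry into S phase, cyclin A acts with CDK2 and CDK1 in S phase and G2, and B-type cyclins act with CDK1 to drive mitosis. Their transcripts follow different controls: growth factor signals set the D-type genes, E2F factors raise the E-type genes in late G1, and the mitotic genes are held down in G1 and released in G2. The 10 genes described here are the A-type cyclin CCNA2, the B-type cyclins CCNB1 and CCNB2, the D-type cyclins CCND1, CCND2 and CCND3, the E-type cyclins CCNE1 and CCNE2, and the kinases CDK1 and CDK2. They were chosen by name, and all 10 were found, on 1 row each, among the 24934 gene rows of the table.

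The libraries came from HEK-293, an established line of human embryonic kidney cells that were transformed with adenovirus DNA and carry its E1A protein, which binds the RB family. Cells received 10 nM of siRNA for 48 h. The siRNAs si4 and si5 were directed against ZSCAN5A and si1 against ZSCAN5B, both genes of zinc finger proteins with a SCAN domain, and the remaining cells received a scrambled negative control siRNA. No group carried any other labelled change, and 1 poly(A)-selected RNA library was made for each siRNA, 4 in all, so the differences below were not repeated in a second culture and a single siRNA gets no p-value. All comparisons use the same control library, and a control that stood high or low for a gene would move its ratio to all 3 siRNAs together.

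Values are FPKM, fragments scaled to transcript length and to the mapped fragments of the library, so that levels can be compared between genes. The steps between low FPKM values gave depths of 1.09, 1.54 and 1.02 times the control for si4, si5 and si1, where the control held about 53700000 fragments. Vimentin (VIM) stood at 295 FPKM in the control and the neurofilament gene NEFL at 41.6, both usual in this line, while the liver gene ALB and the leukocyte gene PTPRC reached at most 0.0335 and 0.00736. The kidney gene PAX2 was low, at 1.16 FPKM in the control and 0.584, 0.615 and 0.608 with si4, si5 and si1. ZSCAN5A was at 0.730 FPKM with si4 and 0.713 with si5, against 2.53 with si1, beside 2.42 in the control. ZSCAN5B was at 0.0331, 0.0663 and 0.0948 FPKM with si4, si5 and si1 and at 0.0903 in the control, about 10 fragments or fewer in each library. These are too few to show whether si1 lowered ZSCAN5B, so the si1 library is called the library labelled ZSCAN5B knockdown. The study itself measured ZSCAN5B transcript by qRT-PCR and protein by Western blot and found both lowered with si1. Its qRT-PCR also had the related gene ZSCAN5D below the control with si4, si5 and, less so, si1, and ZSCAN5B above it with si4. In bulk RNA, a change in the share of cells in a phase of the cycle and a change in the transcript per cell cannot be told apart.

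The siRNA target sites are shown first, so that the matches printed further down can be read against them. An siRNA cuts the transcript it matches in full, and its guide strand can also lower other transcripts through its seed, bases 2 to 8, in the manner of a microRNA. The target sequences were taken from the study's list of oligonucleotides and located in GRCh37. They lie in coding sequence on the minus strand of chromosome 19, si4 at chr19:56733332-56733352 and si5 at chr19:56733307-56733327 in exon 6 of the 6 exons of ZSCAN5A, and si1 at chr19:56701591-56701611 in exon 5 of the 5 exons of ZSCAN5B. Each is printed 5′ to 3′ as in the transcript, with the 7 bases that pair with the guide's seed in capitals.
si4 target: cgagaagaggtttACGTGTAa
si5 target: aagctagtcatccACAAGAGa
si1 target: acgtgtgcaataaATCATTTa
The closest stretch to a whole target in the annotated transcript of any of the 10 genes differed from it at 7 or more of 21 bases.

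Across the 10 genes the levels in the control spanned 9.85 to 136 FPKM. CDK1 was highest at 136 FPKM, followed by CCNB1 at 102, CCNB2 at 59.4, CDK2 at 52.8, CCNA2 at 43.9, CCNE1 at 30.0, CCND1 at 24.7, CCND2 at 18.6, CCND3 at 16.9 and CCNE2 at 9.85. The mitotic genes thus stood above the G1 genes, apart from CDK2. Neighbours in this order lay close: CCND2 was 1.102 times CCND3 and CCNB2 1.13 times CDK2, while the widest steps were from CCNB1 to CCNB2, 1.72 times, and from CCND3 to CCNE2, 1.71 times. CDK1 and CCNB1 held the first and second places in all 4 libraries. The order changed most among the D-type cyclins, since CCND1 went from the seventh place in the control to the last with si4, below CCNE2.

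**Figure D1:**
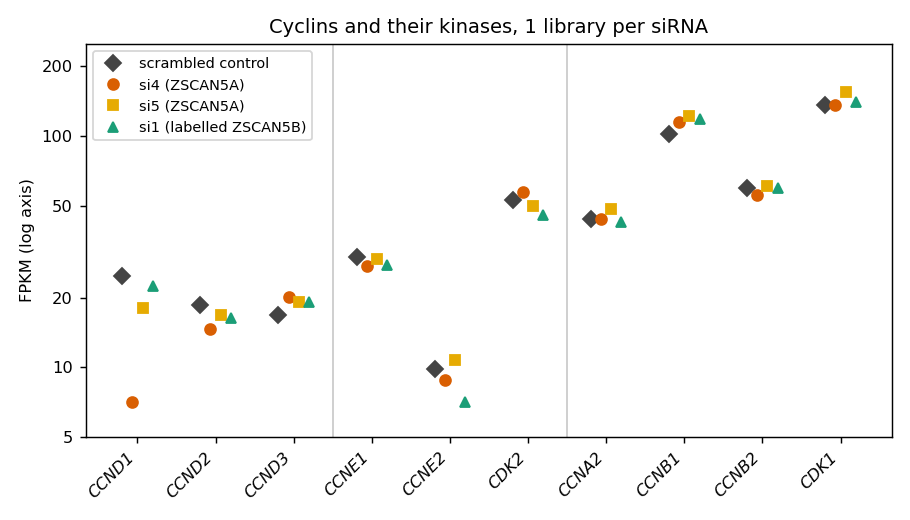
FPKM of the 10 genes in each library on a log axis, 1 point per library, with grey lines between D-type cyclins, E-type cyclins with CDK2, and mitotic cyclins with CDK1. CCND1 with si4 lies at 7.09 FPKM against 24.7 in the control, and CCNE2 is the next most spread, from 7.07 to 10.8.

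With both ZSCAN5A siRNAs averaged, 1 of the 10 genes, CCND1, passed the limit of more than 1.5-fold with at least 1 FPKM in a library. Of 12993 genes that could be compared in the same way, 3.79% passed in either direction and 3.11% were lower, so a share of 1 in 10 rests on that gene alone. With si1, the library labelled ZSCAN5B knockdown, 0 of the 10 passed, against 4.01% of 12921 genes. The median log2 ratio of the 10 genes was 0.0038 for ZSCAN5A, beside -0.02 for all genes compared, and -0.080 for si1, beside -0.0097. Apart from CCND1 the log2 ratios lay between -0.24 and 0.22 for ZSCAN5A, and between -0.48 and 0.22 for si1 with CCND1 included. At a limit of 1.2-fold the count was again 1 for ZSCAN5A, CCND1, where 26.9% of all genes passed, and 1 for si1, CCNE2, where 28.4% passed. CCND1, CCND2 and CCNE1 were below the control in all 3 siRNA libraries and CCNB1 and CCND3 above it in all 3. Among 12411 genes at 1 FPKM or more in every library, 35.5% were lower in all 3 and 30.8% higher in all 3, and these ratios share the control too.

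**Figure D2:**
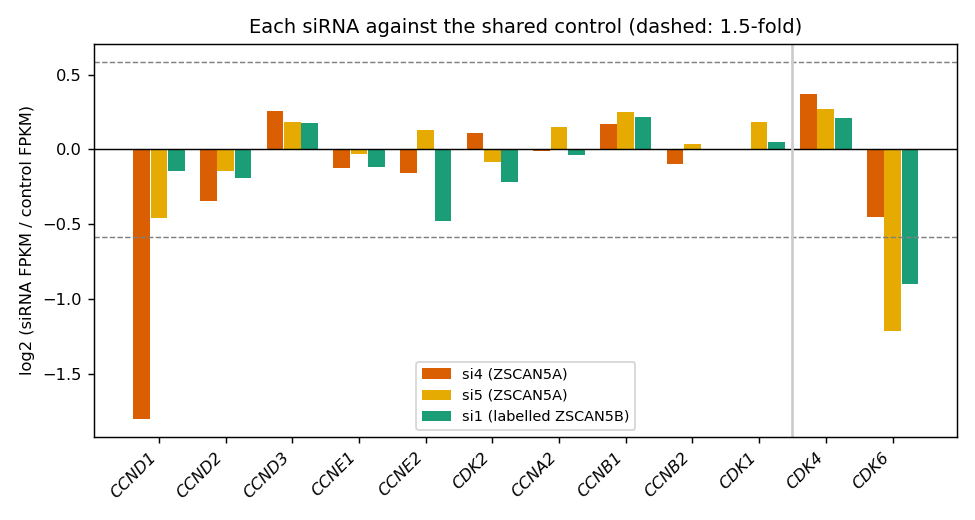
Bars give the log2 ratio of each siRNA library to the same control library for the 10 genes and, right of the grey line, for CDK4 and CDK6. Dashed lines mark 1.5-fold, which CCND1 passed with si4 alone (-1.80), while CDK6 passed with si5 (-1.21) and si1 (-0.90).

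CCND1 encodes cyclin D1, the D-type cyclin most tied to growth factor signals, and its row spans chr11:69455873-69469242. Its transcript was at 7.09 FPKM with si4, 18.0 with si5, 22.4 with si1, beside 24.7 in the control. The si4 library stood far below the others, and the si5 library lay between si4 and si1. The siRNA-to-control ratio was 0.287 with si4 (95% interval 0.272 to 0.303), 0.729 with si5 (0.703 to 0.755) and 0.906 with si1 (0.872 to 0.941). These exact Clopper-Pearson intervals rest on about 1762, 6327, 5177 and 5622 fragments with si4, si5, si1 and in the control, and they cover counting error only, not the spread between cultures. The mean of si4 and si5 was 0.508 of the control, a log2 ratio of -0.98, and 0.408% of all genes compared were as low or lower. Of all genes compared with si4, 0.0464% were as low or lower than CCND1, but with si5 the share was 6.19% and with si1 30.0%. Counted by single siRNA, CCND1 was the 1 gene of the 10 past 1.5-fold with si4, where 6.36% of all genes passed, and 0 of the 10 passed with si5, where 3.54% did. In a limma fit on log2(FPKM + 1) that took si4 and si5 as 2 samples of ZSCAN5A knockdown, 0 of the 10 had an adjusted p under 0.05, against 0.0765% of 13078 genes, and 0 of the 10 had an unadjusted p under 0.05, against 12.6%.

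ZSCAN5A itself was lowered to the same degree by both siRNAs, to 30.2% of the control with si4 and 29.5% with si5, a ratio of si4 to si5 of 1.02 (0.775 to 1.35). For CCND1 the ratio of si4 to si5 was 0.394 (0.374 to 0.415). This comparison does not use the control, and CCND1 ranked 11 from the lowest of 12800 genes in it. The fall of CCND1 past 1.5-fold therefore came from 1 library, since without si4 the ratio was 0.729, and 2.53% of all genes differed by more than 1.5-fold between si4 and si5. The next most unequal of the 10 genes was CCNE2, at 0.820 (0.766 to 0.876).

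**Figure D3:**
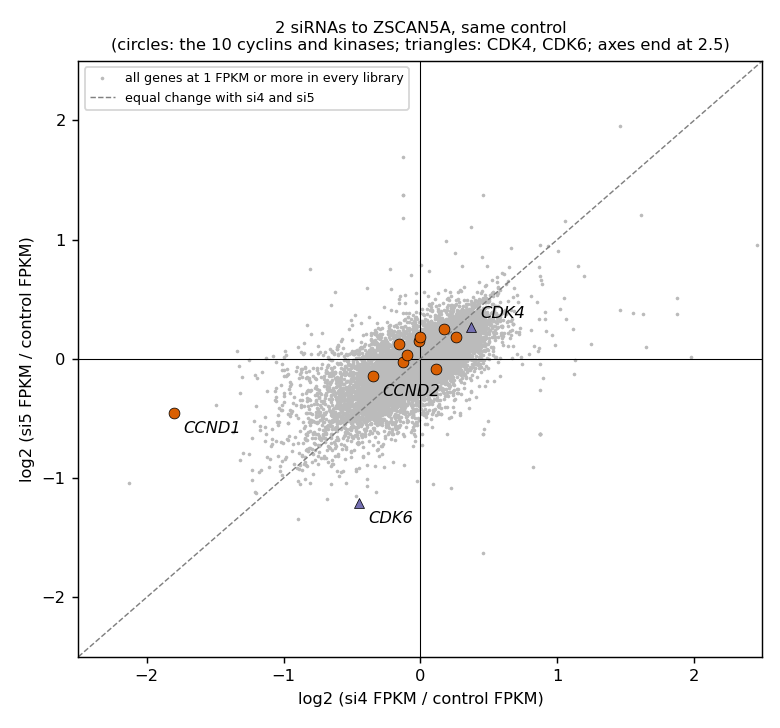
Log2 ratio to the control with si4 (x axis) and si5 (y axis), with grey points for genes at 1 FPKM or more in every library (1 gene lies beyond the axes). Most of the 10 genes lie near the origin, CCND1 lies far left at -1.80 and -0.46, and CDK6 lies low at -0.45 and -1.21.

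Genes whose 3′ UTR held a 7-base match to the si4 seed had a lower median with si4, and CCND1 was not among them. Of 11405 genes at 1 FPKM or more in every library with an annotated 3′ UTR, 390 (3.42%) held a 7-base match and had a median log2 ratio of -0.29 with si4, beside 0.0085 for the 10289 genes with no match to bases 2 to 7. The 15 genes with 2 or more 7-base matches had a median of -0.48. In the libraries that did not receive si4, the 390 genes had medians of -0.05 with si5 and -0.04 with si1. Their median 3′ UTR was 3287 bases long, against 1270 for genes without a match, and the part of length was not tested. A further 726 genes with only a 6-base match, CCND1 among them, had a median of -0.12 with si4. The same 726 genes had medians of -0.079 with si5 and -0.064 with si1, and a median 3′ UTR of 2962 bases. The 1373 genes with a 7-base match to the si5 seed had medians of -0.096 with si5, -0.045 with si4 and -0.046 with si1. Those with no si5 match of 6 bases were at 0.0074 with si5. The 2715 genes with a 7-base si1 match had medians of -0.053 with si1, -0.031 with si4 and -0.026 with si5. Those with no si1 match of 6 bases were at 0.039 with si1. Median 3′ UTRs were 3414 and 3133 bases in the matched genes, against 858 and 591, and the part of length was not tested here either.

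**Figure D4:**
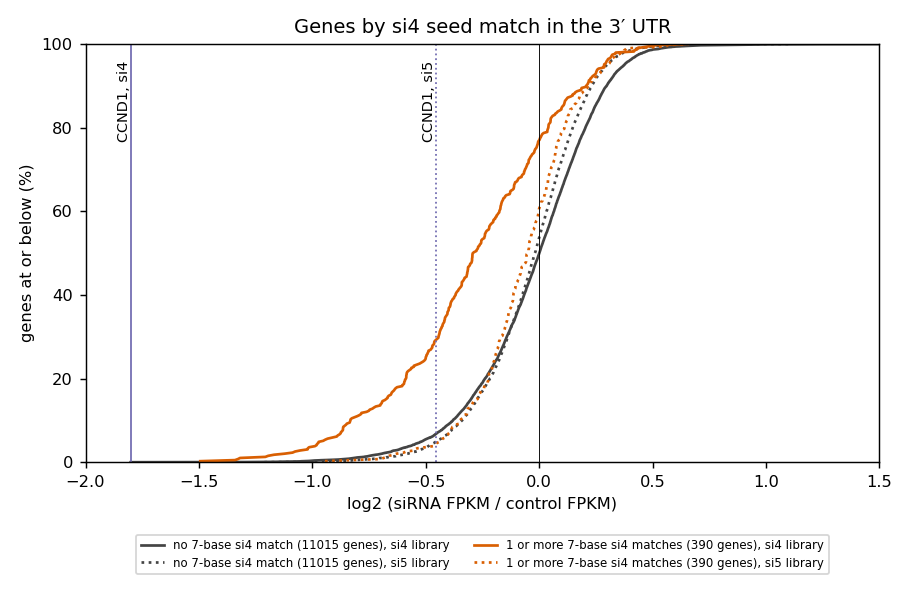
Cumulative share of genes by log2 ratio to the control, with genes that hold a 7-base match to the si4 seed in the 3′ UTR in orange and all others in dark grey, solid for the si4 library and dotted for the si5 library. The 390 matched genes are shifted to the left with si4 (median -0.29) and hardly with si5 (-0.05). Vertical lines mark CCND1, which held no 7-base match and is among the dark grey genes.

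The 3′ UTR of CCND1, of 3192 bases in exon 5 of 5, held no 7-base match to the si4 seed and 1 match to its bases 2 to 7, at chr11:69468500-69468520 on the plus strand. It also held a 6-base match to the si5 seed at chr11:69467876-69467896. The sites are printed with the matched bases in capitals, to be read against the targets above. They matched the whole target at 11 and 8 of 21 bases.
CCND1, si4 6-base match: tgtgttattctttgCGTGTAg
CCND1, si5 6-base match: ttgaagggaggtggCAAGAGt
None of the other 9 genes held any si4 match of 6 bases or more, and neither did 90.2% of the 11405 genes. A 6-base but no 7-base match stood in 6.37% of the 11405 genes for si4 and in 23.5% for si5. Whether the 6-base match has a part in the low CCND1 level with si4 was not tested.

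CCND2, on chromosome 12, encodes cyclin D2 and CCND3, on chromosome 6, cyclin D3. CCND2 was at 14.7 FPKM with si4, 16.8 with si5, 16.3 with si1, beside 18.6 in the control. All 3 siRNA libraries were below the control, at ratios of 0.788 (0.760 to 0.817), 0.905 (0.876 to 0.934) and 0.877 (0.846 to 0.909), none past 1.5-fold. CCND3 was at 20.2, 19.2, 19.1 and 16.9 FPKM in the same order. Here all 3 were above the control, at ratios of 1.195 (1.12 to 1.27), 1.13 (1.07 to 1.202) and 1.13 (1.06 to 1.21). CCND2 was the only 1 of the 10 genes with a 7-base match to the si5 seed, at chr12:4413596-4413616 on the plus strand, whose part in its level was not tested. A 7-base si5 match stood in 12% of the 11405 genes with an annotated 3′ UTR.
CCND2, si5 7-base match: ctcagagcaatttACAAGAGc

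The make-up of the D-type cyclins shifted with si4. Summed over CCND1, CCND2 and CCND3, the level was 60.2 FPKM in the control, 57.8 with si1, 53.99 with si5 and 41.9 with si4, which is 69.7% of the control. CCND1 was 41.1% of the sum in the control, 38.7% with si1, 33.4% with si5 and 16.9% with si4. CCND3 went the other way, from 28.0% in the control to 33.1%, 35.5% and 48.1%. CCND1 was thus the most abundant D-type transcript in the control and with si1, and CCND3 was with si5 and si4.

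**Figure D5:**
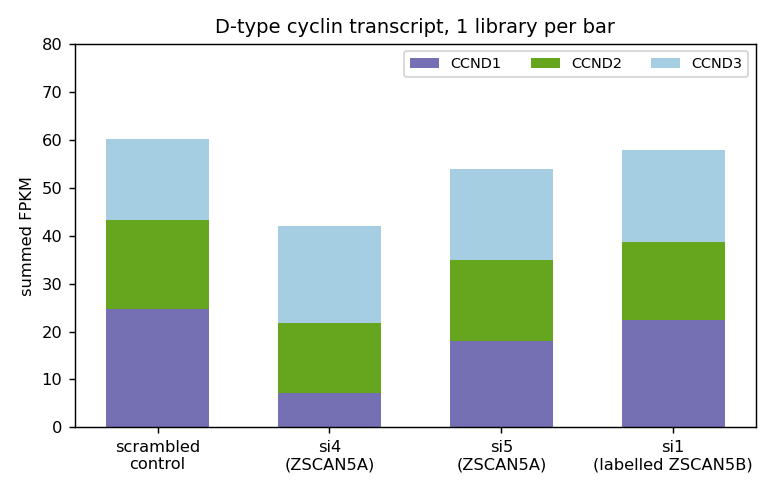
Stacked bars of the FPKM of CCND1, CCND2 and CCND3, 1 library per bar, with no error bars because each siRNA has 1 library. The sum is 60.2 in the control and 41.9 with si4, where CCND1 holds 16.9% of it.

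The kinases that D-type cyclins bind were read beside them. CDK4 was at 140 FPKM with si4, 130 with si5, 125 with si1, beside 108 in the control, and CDK6 at 10.6, 6.26, 7.76 and 14.5. CDK4 was above the control in every siRNA library without passing 1.5-fold, and CDK6 was below it in every one. CDK6 passed 1.5-fold for the ZSCAN5A mean (0.582 of the control) and with si1 (0.536, 0.517 to 0.554). Its ratio was 0.432 with si5 (0.418 to 0.446) but 0.733 with si4 (0.710 to 0.756), so the siRNA with the lower CDK6 was not the one with the lower CCND1. CDK6 was 11.8% of the summed CDK4 and CDK6 FPKM in the control and 7.05%, 4.59% and 5.86% with si4, si5 and si1. Its long 3′ UTR, 10219 bases, held no si4 match, 2 7-base si5 matches and 3 7-base si1 matches, and their part in its level was not tested. Of the 11405 genes with an annotated 3′ UTR, 1.67% held 2 or more 7-base si5 matches and 7.2% held 2 or more for si1. The si5 matches lie on the minus strand at chr7:92242539-92242559 and chr7:92239578-92239598.
CDK6, si5 first match: atgactatcttgaACAAGAGa
CDK6, si5 second match: ccttaggaagaaaACAAGAGc

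CCNE1 and CCNE2 encode the E-type cyclins that activate CDK2. CCNE1, on chromosome 19, was at 27.5 FPKM with si4, 29.4 with si5, 27.6 with si1, beside 30.0 in the control. It was slightly below the control in each, with ratios of 0.916, 0.980 and 0.921. CCNE2 was at 8.82, 10.8, 7.07 and 9.85 FPKM. Its ratio with si1, 0.718 (0.662 to 0.779), was the lowest of the 10 genes in that library, and 5.66% of all genes compared were as low or lower. With si4 the ratio was 0.895 (0.831 to 0.965) and with si5 1.09 (1.02 to 1.17), on opposite sides of the control. No siRNA seed match stood in its 3′ UTR of 1408 bases. When the median of genes of like transcript length and GC content was subtracted, the log2 ratio with si1 went from -0.48 to -0.59, just past 1.5-fold. CCNE2 overlaps INTS8 in the table, whose FPKM was 14.1, 10.6, 14.1 and 12.3 with si4, si5, si1 and in the control, and the strand setting of the authors' counting is not given in the sources used here.

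CDK2, on chromosome 12, was at 57.1 FPKM with si4, 49.7 with si5, 45.4 with si1, beside 52.8 in the control. It was above the control with si4, at a ratio of 1.08 (1.05 to 1.12), and below it with si5, 0.942 (0.912 to 0.973), and si1, 0.860 (0.830 to 0.892). CCNE1, CCNE2 and CDK2 were all below the control with si1, by less than 1.5-fold each. CDK2 held a 7-base match to the si1 seed at chr12:56366230-56366250 on the plus strand, and so did CCNA2 on the minus strand at chr4:122738700-122738720, whose ratio with si1 was 0.972. A 7-base si1 match stood in 23.8% of the 11405 genes with an annotated 3′ UTR, and its part in either level was not tested.
CDK2, si1 7-base match: ttagggtttaggcATCATTTt
CCNA2, si1 7-base match: ttttaattttacaATCATTTc

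The log2 ratios of the mitotic genes lay between -0.10 and 0.25 in every siRNA library, none past 1.5-fold. CCNA2, on chromosome 4, encodes cyclin A2 and was at 43.6 FPKM with si4, 48.6 with si5, 42.7 with si1, beside 43.9 in the control. Its highest ratio was 1.11 with si5 (1.07 to 1.14), and with si4 the interval, 0.960 to 1.03, took in 1. CCNA2 overlaps EXOSC9, which was at 31.5, 35.9, 34.3 and 30.9 FPKM.

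CDK1, on chromosome 10, encodes the kinase of mitosis. It was at 136 FPKM with si4, 155 with si5, 141 with si1, beside 136 in the control. The si4 and control values were equal to 3 digits, and si5 was 1.14 times the control (1.11 to 1.16). CCNB1, on chromosome 5, encodes the main mitotic cyclin and was at 115, 122, 119 and 102 FPKM. All 3 siRNA libraries were above the control, at 1.13 (1.097 to 1.15), 1.19 (1.16 to 1.22) and 1.16 (1.13 to 1.19) times its level. After the length and GC correction its log2 ratio went from 0.21 to 0.13 for ZSCAN5A and from 0.22 to 0.074 for si1. CCNB2, on chromosome 15, was at 55.5, 60.8, 59.4 and 59.4 FPKM, with ratios of 0.934 (0.897 to 0.972), 1.02 (0.987 to 1.06) and 1.00 (0.961 to 1.04). The B-type cyclins therefore did not share 1 direction with si4, and CCNB1 was 63.3% of their summed FPKM in the control and 66.7% to 67.5% with the siRNAs. The median log2 ratio of the 4 mitotic genes was 0.083 for ZSCAN5A and 0.024 for si1, beside -0.02 and -0.0097 for all genes compared. After the length and GC correction CCNA2, CCNB2 and CDK1 were at 0.068, -0.11 and 0.011 for ZSCAN5A and at -0.070, -0.13 and -0.093 for si1. CDK1 and CCNB2 thus changed sign with si1.

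Mitotic genes are known for promoters with several CCAAT boxes, which NF-Y binds, and for the CHR element TTTGAA. RefSeq promoters (GRCh38.p14, 250 bases before to 50 after the start) were given for 6 of the 10 genes, with 9 starts. CCND3 and CDK1 had more than 1 start each, so the starts are not separate genes. CCAAT on either strand stood in 7 of the 9, starts of the G1 gene CCND3 among them, against 34.6% of 35116 promoters. At least 2 copies stood in 3 of the 9, against 10.8%. Those 3 belong to CCNB1, CCNB2 and 1 start of CDK1. The 2 copies lay 32 bases apart in CCNB1 and in CDK1, counted from first base to first base. CCNB2 held 4 copies, 124, 33 and 33 bases apart. TTTGAA stood in 3 of 9, both starts of CDK1 and that of CCNB2, against 15.2%. The starts of the mitotic genes CCNA2 and CCNB1 held no TTTGAA, and that of CCNA2 held only 1 CCAAT. The E2F-like motif TTTCGCGC stood in 2 of 9, against 0.515%. Those 2 windows are overlapping ones of CDK1, and they hold the same 1 site. The other E2F-like motifs searched, TTTGGCGC and TTTCCCGC, stood in 0 of 9, against 0.652% and 1.63% of all promoters. All motifs were searched on both strands, and a match is a description of letters. The stretches that hold the copies, without the copy of CCNB2 farthest from its start, are printed on the plus strand, at chr5:69167053-69167134, chr15:59105016-59105131 and chr10:60778390-60778471, with CCAAT or its reverse complement ATTGG in capitals.
CCNB1: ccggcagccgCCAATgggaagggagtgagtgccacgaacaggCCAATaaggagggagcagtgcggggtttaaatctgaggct
CCNB2: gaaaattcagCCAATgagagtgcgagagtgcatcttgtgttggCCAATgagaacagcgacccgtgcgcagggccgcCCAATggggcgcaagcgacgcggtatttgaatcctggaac
CDK1: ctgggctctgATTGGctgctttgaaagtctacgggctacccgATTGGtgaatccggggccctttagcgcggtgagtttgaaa

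The proteins that restrain these kinases were listed with CDK4 and CDK6, 9 genes in all. For ZSCAN5A 0 of the 9 passed 1.5-fold upward and 1 downward, CDK6, where 3.11% of all genes compared passed downward. With si1 0 passed upward and 2 downward, CDK6 and CDKN1C, where 409 of 12921 genes passed downward. CDKN1C, an inhibitor of the CIP and KIP family, was at 1.89, 2.27, 1.55 and 2.33 FPKM with si4, si5, si1 and in the control. It rests on about 150 fragments with si1. The log2 ratio of CDKN1C with si1 was -0.59, its interval as a ratio ran from 0.537 to 0.822, and it no longer passed under median-ratio scaling (-0.570) or upper-quartile scaling (-0.582). After the length and GC correction it still passed, at -0.64. CDKN2A, whose locus encodes the CDK4 and CDK6 inhibitor INK4a and the unrelated ARF, was at 158, 135, 126 and 103 FPKM. It was above the control in every siRNA library and passed 1.5-fold with si4 alone, at 1.53 (1.48 to 1.58), a log2 ratio of 0.61 that was 0.45, inside 1.5-fold, after the length and GC correction. CDKN1B, an inhibitor of CDK2 complexes, was at 36.2, 42.6, 35.7 and 45.2 FPKM, below the control in each. The median log2 ratio of the 9 genes was -0.04 for ZSCAN5A and -0.26 for si1.

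Genes that switch CDKs on or off by phosphorylation numbered 9, of which 8 could be compared and 0 passed in either comparison. WEE1, the kinase that adds the inhibitory phosphate to CDK1, was at 18.5, 19.8, 17.6 and 23.9 FPKM with si4, si5, si1 and in the control, and CDC25B, a phosphatase that removes it, at 19.96, 21.2, 21.5 and 26.6. Both opposing enzymes were below the control in all 3. CDK7 and MNAT1, subunits of the CDK-activating kinase, were above it in all 3, with mean log2 ratios of 0.28 and 0.21. Their partner cyclin CCNH was above it with si4 and si1, at 0.32 and 0.27, and at -0.08 with si5.

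Of 27 genes for cyclin destruction, which encode the anaphase-promoting complex, SCF ligase subunits and their partners, 0 passed 1.5-fold in either comparison. In this list 21 (77.8%) were above the control for ZSCAN5A and 20 (74.1%) with si1, where 46.7% and 48.5% of all genes compared were. In all 3 siRNA libraries 15 (55.6%) were above it, where 30.8% of all genes were. The median log2 ratios were 0.067 and 0.085. The APC subunit CDC26 was at 23.8, 20.5, 25.9 and 17.8 FPKM with si4, si5, si1 and in the control, and RBX1, the RING subunit of SCF ligases, at 108, 114, 104 and 86.5. The other genes named by size were CKS2, CKS1B and ANAPC11, with mean log2 ratios over the siRNAs of 0.22, 0.22 and 0.19. After subtraction of the median of genes of like transcript length and GC content, 18 and 17 of the 27 were above the control for ZSCAN5A and si1 and 14 in all 3 (31.6% of all genes), with medians of 0.046 and 0.055. CKS2 and CKS1B were then at 0.029 and 0.027 for ZSCAN5A and at -0.026 and -0.022 with si1.

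The pocket proteins, which D-type and E-type kinases phosphorylate to free E2F, are RB1, RBL1 and RBL2. RB1 was at 16.4, 20.8, 19.8 and 22.3 FPKM with si4, si5, si1 and in the control, and 0 of the 3 passed 1.5-fold. All 3 were below the control for ZSCAN5A and with si1, with medians of -0.15 and -0.16, and RBL1 was above it with si5 (0.10).

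Among 18 other cyclins 16 could be compared, and among 16 other CDKs 15, with 0 past 1.5-fold in either comparison. CCNC, the cyclin of the Mediator kinase, was at 74.8, 76.7, 69.9 and 54.7 FPKM with si4, si5, si1 and in the control. CCNF, which acts in a ubiquitin ligase and not with a CDK, was at 7.97, 7.01, 7.17 and 10.3, and CCNK, the partner of CDK12 and CDK13, at 10.5, 9.58, 10.1 and 13.8. CCNL2 and CCNI had mean log2 ratios over the siRNAs of -0.32 and -0.32. For the CDKs the values were -0.35 for CDK18, -0.30 for CDK17, 0.25 for CDK5, 0.17 for CDK8 and -0.16 for CDK19. With si4 alone CDK17 passed 1.5-fold, at 0.665 of the control (0.626 to 0.705), a log2 ratio of -0.589 that was inside 1.5-fold under median-ratio scaling (-0.557) and upper-quartile scaling (-0.580). After the length and GC correction it was just past the limit, at -0.591. The median log2 ratios were -0.12 and -0.08 for the cyclins and -0.10 and -0.05 for the CDKs, for ZSCAN5A and si1.

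The genes most like CCND1 were taken as those with the smallest Euclidean distance to its 3 log2 ratios, among 12410 genes at 1 FPKM or more in every library. They were MYPOP, TGFBR3, C6orf228, C1QTNF6 and GLCE, at distances of 0.53 to 0.67 over 3 siRNA libraries that share a control. MYPOP had log2 ratios of -1.37, -0.62 and -0.41 with si4, si5 and si1, and TGFBR3 had -1.49, -0.38 and -0.61. None of the 5 fell as far as CCND1 with si4. TGFBR3 and GLCE each held 1 7-base match to the si4 seed in the 3′ UTR, MYPOP held 1 6-base match, and C6orf228 and C1QTNF6 held none. Of 11405 genes with an annotated 3′ UTR, 3.42% held a 7-base match. The 5 genes were picked in part by a low si4 ratio, so their matches are a description only, and any part in their levels was not tested.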

How the data were processed

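RNA libraries from 4 HEK-293 cultures were analysed, as labelled: si4, si5, si1 and scrambled control. The authors trimmed and aligned the reads and computed FPKM with the Tophat-Cufflinks tools (submitters' processing notes: CASAVA 1.8.2, Trimmomatic 0.30, TopHat2 2.1.0, Cufflinks 2.2.1, hg19), and the deposited table of FPKM values was used without further scaling. Labels and methods name different stranded mRNA kits. Read counts were not analysed here. A ratio was called when above 1.5-fold, with at least 1 FPKM in 1 library of the comparison and neither side at 0. The ZSCAN5A ratio used the mean FPKM of si4 and si5, which the study treated as 1 group by its own methods. The study's adjusted p-value for ZSCAN5A was not remade.

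Approximate fragments came from low FPKM values: of 1745 genes at or under 0.1 FPKM, 70.1% stood in whole-number proportions (no number above 40, tolerance 0.05%), and 1037 genes with a transcript length set the scale. Transcripts came from GENCODE lifted to GRCh37, with 12377 (95.3%) of the genes compared matched. The siRNA sequences came from the study's supplement, and the antisense strand was taken as the guide. Of the rows, 543 symbols occurred more than once, none of them a member.

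Members and gene lists were chosen with earlier results of these data known. The genes named were all members, both targets, CDK4, CDK6, each list gene past the limit, at most 5 per list with the largest mean log2 ratio over the siRNAs in absolute size, and the 5 nearest to CCND1. CDKN2A and CDK17 passed with si4 alone and were named under the size rule.

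In simulated data for ZSCAN5A against control, 200 of 12858 genes were changed. Each changed gene was set past the fold limit and equally with si4 and si5, with the same noise setting in every library. Of these, the fold limit found 99.5% and limma 94.5%. Those shares describe that data set only, and recovery in the 4 measured libraries was not tested. Tools were Python 3.11.15, NumPy 2.4.6, pandas 2.3.3, SciPy 1.17.1, matplotlib 3.10.9, R 4.3.3 and limma 3.58.1. Alternatives covered the fold and FPKM limits, pseudocounts, scaling between libraries, length and GC content, each siRNA alone and limma.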

Additional observations from a re-analysis of the deposited data

Results flagged for a closer look

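By point value, both targeted genes were on opposite sides of the control with the ZSCAN5A siRNAs and with si1, a difference that was not tested. ZSCAN5A had log2 ratios of -1.73 with si4, -1.76 with si5 and 0.066 with si1. Its si1 interval as a ratio, 0.887 to 1.24, took in 1. ZSCAN5B had log2 ratios of -1.45, -0.45 and 0.070, on about 4 to 10 fragments per library. Each ZSCAN5B interval took in 1: 0.0916 to 1.46 for si4, 0.263 to 2.00 for si5, 0.346 to 2.80 for si1. These counts therefore do not settle on which side of the control ZSCAN5B lay. The study's own qRT-PCR placed ZSCAN5B above the control after si4 and below it after si1. Of the 10 cyclins and kinases, 0 had si4 and si5 on the same side of the control and si1 on the other.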

How the results depend on the processing

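For ZSCAN5A, the count of 1 gene past the limit, CCND1, was kept at a fold limit of 1.2, with no FPKM limit or one of 5 FPKM, with pseudocounts of 0.1 and 1 FPKM, under both scalings between libraries, after the length and GC correction and with si4 alone. It was 0 at a fold limit of 2, with si5 alone, and by limma. With limma, fitted on log2(FPKM + 1) with si4 and si5 as 2 samples and 1 library in each other group, the lowest Benjamini-Hochberg adjusted p among the 10 genes was 0.42 and that of CCND1 0.46, 0 of the 10 had an unadjusted p under 0.05, and 10 of 13078 genes (0.0765%) passed, 1654 (12.6%) before adjustment. This fit compares 4 libraries, and the lone ones are assumed to vary as si4 and si5 do. For si1, the count of 0 became 1, CCNE2, at a fold limit of 1.2 and after the length and GC correction, and stayed 0 otherwise. The median log2 ratio ran from -0.054 (si4 alone) to 0.081 (si5 alone) for ZSCAN5A and from -0.10 to -0.057 for si1. Signs that changed belonged to genes whose reported log2 ratio was at most 0.094 in size. No paired analysis was possible because each siRNA has 1 library and the labels share no replicate numbers. Depth sets the counting intervals, and the spread between cultures was not measured.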
